A study of Arabidopsis thaliana with 12 samples.

Results

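In 294 of the 33557 genes listed for Arabidopsis roots, the transcript level at least doubled over a day in untreated, phosphate-starved roots, while roots kept in arsenate for the same day held at most 0.5 of that level. These genes were chosen from the deposited FPKM values (fragments per kilobase of transcript, scaled to the size of the library). The rule asked for 5 FPKM or more as the average of the 12 libraries, a log2 ratio of at least 1 for mock at 24 h over mock at 1.5 h, and a log2 ratio of at most -1 for As(V) over mock at 24 h, each from group means plus 1. Of 14768 genes with that mean level, 427 had the mock rise (2.89%) and 2199 had the lower level with As(V) at 24 h (14.9%). Among the 427 risers, 294 therefore met both conditions and 133 did not. Both contrasts at 24 h chose the genes and carry no test here.

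The material was roots of wild-type Col-0 seedlings, grown for 7 days with 1 mM phosphate, then for 2 days without it, and moved to phosphate-free liquid medium. As(V) roots received 30 µM As(V) for 1.5, 6 or 24 h, and mock roots the same medium without As(V). All 6 groups had therefore been without phosphate for days, mock included. Each group had 2 libraries from 60 seedlings each, and the labels do not say that these were separate cultures, so p-values measure only the spread between these libraries, which may be technical.

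Phosphate-starved roots switch on a set of genes under the factor PHR1, which binds a short palindromic element named P1BS. The set includes phosphate carriers of the PHT1 family, SPX proteins that sense inositol phosphates and restrain PHR1, the noncoding RNA IPS1 that sequesters miR399, secreted phosphatases, and enzymes that replace membrane phospholipids by galactolipids and sulfolipids. Arsenate is a chemical analogue of phosphate and enters root cells through the same carriers.

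Of the 294 genes, 273 were protein-coding, 6 were annotated as snoRNA, 5 as miRNA, 3 as tRNA, 2 as ncRNA and 1 as lncRNA, and 4 were not in the TAIR10.1 annotation used for names. The P1BS element, searched as GNATATNC, was found within 300 bases upstream of the annotated start in 42 of the 273 protein-coding genes (15.4%), against 1785 of 27443 protein-coding genes of the nuclear chromosomes (6.5%). It was found upstream of 8 of 18 phosphate starvation genes in the group (44.4%) and upstream of 4 of 28 other listed phosphate starvation genes (14.3%). Among the 133 mock risers that stayed above 0.5 of mock, 13 of 116 protein-coding windows held it (11.2%). These shares describe letters in a window and say nothing of binding. The windows of 4 genes with different courses, read from the RefSeq genome of build TAIR10.1 on each gene's own strand with P1BS matches in capitals, are shown because these genes return in the results.

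SPX3, chr2:18606110-18606409, plus strand: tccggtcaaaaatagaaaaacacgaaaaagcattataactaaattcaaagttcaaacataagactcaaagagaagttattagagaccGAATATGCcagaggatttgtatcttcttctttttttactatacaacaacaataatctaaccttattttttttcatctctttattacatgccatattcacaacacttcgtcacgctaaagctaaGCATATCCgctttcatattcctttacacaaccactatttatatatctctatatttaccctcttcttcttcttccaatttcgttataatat
SRG3, chr3:350011-350310, minus strand: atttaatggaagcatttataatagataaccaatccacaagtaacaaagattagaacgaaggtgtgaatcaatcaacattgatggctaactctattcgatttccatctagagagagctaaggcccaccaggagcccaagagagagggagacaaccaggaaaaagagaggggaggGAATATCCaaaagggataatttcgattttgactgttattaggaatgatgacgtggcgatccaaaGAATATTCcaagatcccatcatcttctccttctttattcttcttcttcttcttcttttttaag
PS2, chr1:27466349-27466648, minus strand: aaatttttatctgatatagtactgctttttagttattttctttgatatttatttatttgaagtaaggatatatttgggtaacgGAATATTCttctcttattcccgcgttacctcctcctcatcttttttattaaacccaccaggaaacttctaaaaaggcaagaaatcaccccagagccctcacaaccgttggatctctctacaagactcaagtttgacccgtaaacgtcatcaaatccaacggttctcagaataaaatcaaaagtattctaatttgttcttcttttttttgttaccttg
NPC4, chr3:845097-845396, minus strand: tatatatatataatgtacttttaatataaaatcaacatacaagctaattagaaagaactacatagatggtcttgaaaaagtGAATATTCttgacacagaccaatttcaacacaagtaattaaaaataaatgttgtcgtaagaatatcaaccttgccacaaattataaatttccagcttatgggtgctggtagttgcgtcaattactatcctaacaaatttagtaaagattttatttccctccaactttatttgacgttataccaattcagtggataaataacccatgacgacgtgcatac

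No annotated gene lies within these 4 windows. SPX3 and SRG3 each hold 2 matches, beginning 213 and 90 bases before the start in SPX3 and 127 and 63 bases before it in SRG3. PS2 holds 1 match, 217 bases before the start, and NPC4 holds 1 at 219 bases. The P1BS pattern reads the same on both strands, and matches of different motifs that overlap were each counted. A W-box (TTGACC or TTGACT, either strand), which WRKY factors bind, was present upstream of 37.7% of the protein-coding members and 32.3% of all protein-coding genes. The G-box CACGTG stood at 6.23% of members and 7.09% of all, the evening element AAATATCT at 2.93% and 5.64%, and the L1 box (TAAATGCA or TAAATGTA) at 3.66% and 5.51%.

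Before the results, 3 properties of the libraries bear on them. Estimated reads in genes ran from 12.85 to 16.04 M per library, and the deposited scaling departed from these totals in As(V) roots: its library size was 0.436 and 0.451 of the reads at 6 h, against 1.021 and 1.026 in mock at 6 h. With library totals in place of that scaling the typical gene's change at 6 h, as a median, moved to -1.06, beside -0.12 as deposited, so every direction below is relative to the deposited scaling unless the shift is given. The 2 mock libraries at 24 h differed for a subset of members: 46 of the 294 met the rule only with replicate 2 of mock at 24 h and 25 only with replicate 1. Leaving out each of the 6 libraries behind the rule in turn left 209 members that met its fold conditions every time, and counts are given for these as well. The other 85 failed at least once, and not every gene among them is marked where it is named. They include EXPA15, GSTF11, UGT72E3, AT2G36570 and MYB45. Summed markers of cell types also moved with As(V), and none of the green tissue, root hair or xylem markers was a member. The 13 green tissue markers summed to 150 and 161 FPKM at 6 h of As(V) and 230 and 209 FPKM in mock at 6 h. The 8 root hair markers summed to 242 and 208 FPKM with As(V) and 1246 and 1349 FPKM in mock at 6 h, and the 8 endodermis markers, with CASP5 as 1 member, to 83.5 and 80.7 against 517 and 527 FPKM. The 4 genes taken as root markers, PHT1;1, PYK10, TIP2;2 and NRT2.1, summed to 1706 and 1567 FPKM in As(V) roots at 6 h and 7937 and 7852 FPKM in mock roots. Of these, PHT1;1 is also on the phosphate starvation list, with a log2 change of -1.46 at 6 h. None of the markers was under 1 FPKM in every library. In bulk roots fewer cells of a type, less RNA per cell and regulation of the marker genes themselves cannot be told apart. The part these shifts play in the results was not tested.

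**Figure D1:**
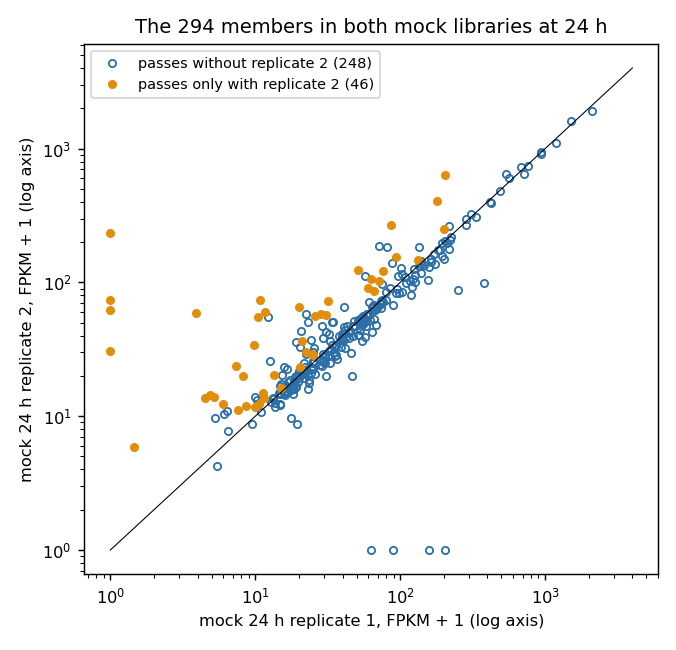
FPKM + 1 of the 294 members in replicate 1 (x axis) and replicate 2 (y axis) of mock roots at 24 h, both axes on a log scale, with the line of equality. Filled points are the 46 members that met the rule only with replicate 2, most of them above the line, and open points are the other 248.

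The libraries at 6 h entered the rule only through the mean level, and the comparison of As(V) with mock at 6 h asks whether the lower level seen at 24 h was already present. Of the 294 members 272 passed the filter on low values and were tested. Of these, 171 fell (62.9%), beside 37.5% of all 19837 genes tested, and 39 rose (14.3%), beside 35.8% of all, at an adjusted p under 0.05 from limma with Benjamini-Hochberg adjustment. The other 62 did not pass. Both As(V) libraries lay below both mock libraries in 183 members, beside 48.3% of all genes tested, and above them in 56, beside 41.2%. With library totals 219 of the 272 fell (80.5%), beside 69.4% of all genes, so the 2 shares lay closer together than as deposited. The members' median log2 change was -1.26, beside -0.12 over all genes. With library totals the members' median was -2.24, which is -1.17 relative to all genes, against -1.14 relative to all genes as deposited. Among the 202 tested members that met the rule without each of its 6 libraries, 139 fell and 22 rose. The filter keeps members through mock at 24 h where they are high, so these counts describe the members and are not offered as support for the rule.

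The 39 that rose depend on the scaling. With library totals 13 of the 39 were still called higher, 6 were called lower and 20 were not called. With that scaling 16.6% of all genes tested were called higher and 69.4% lower.

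Other genes with a like course in 1 of the 2 conditions give the setting. The 133 mock risers that stayed above 0.5 of mock at 24 h had 110 tested genes, of which 15 fell and 70 rose at 6 h with As(V), with a median of 1.79. The 1844 genes that changed less than 2-fold in mock and were at most 0.5 of mock with As(V) at 24 h had 1827 tested, of which 1352 fell and 213 rose, with a median of -1.26. Members thus had the same median at 6 h as the genes with a steady mock level, and their spread was wider at the upper end. The upper quartile of the change was 0.08 in members, against -0.37 in the steady group. No test of these differences was made.

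**Figure D2:**
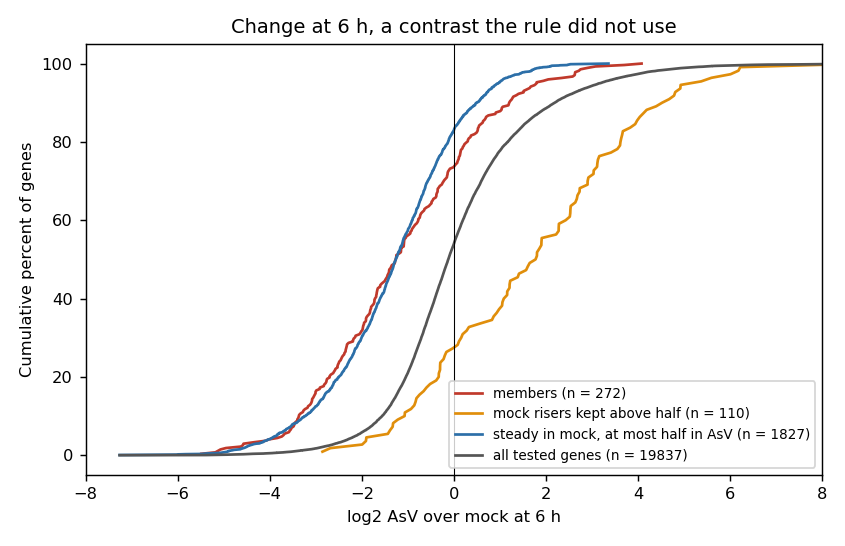
Cumulative percent of genes (y axis) by log2 change of As(V) over mock at 6 h (x axis) for the 272 tested members, the 110 tested mock risers that stayed above 0.5 of mock at 24 h, the 1827 tested genes with a steady mock level and all 19837 tested genes. The members' curve lies left of that of all genes, with a median of -1.26 against -0.12, and near that of the steady group.

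Within the As(V) roots, 148 of the 272 tested members fell between 1.5 and 6 h (54.4%), beside 19.9% of all genes, and 16 rose (5.88%), beside 29% of all. The median change of members was -0.82, beside 0.00 over all genes. Of the 1827 tested genes with a steady mock level 884 fell (48.4%), with a median of -0.54. Of the 110 tested mock risers that stayed above 0.5 of mock 40 fell (36.4%), with a median of -0.35. A fall within the As(V) series was thus not particular to the members. Of the 171 members below mock at 6 h, 104 had also fallen within the As(V) series from 1.5 to 6 h and 3 had risen. Among the 39 above mock at 6 h, 12 had risen further since 1.5 h and 10 had fallen.

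Members did not share 1 course under As(V). At 1.5 h, 71 of the 272 tested members were at least 2-fold higher with As(V) than in mock (26.1%), beside 17.1% of the 14768 genes, and 56 were at most 0.5 of mock (20.6%), beside 14%. Among the 202 tested members that met the rule without each of its 6 libraries, 37 were at least 2-fold higher (18.3%), near the share of all genes, and 42 were at most 0.5 of mock (20.8%). Of the 38 tested members that needed replicate 2 of mock at 24 h, 27 were at least 2-fold higher at 1.5 h of As(V). With library totals the counts over the 272 were 46 and 97. That scaling lowered genes in general, with a median change at 1.5 h of -0.57 over the 14768 genes and -0.55 over the tested members. The group mean was highest in mock at 24 h for 215 members, in As(V) at 1.5 h for 38, in As(V) at 6 h for 10 and in mock at 6 h for 9. At 24 h of As(V), 85 members were at most 0.5 of their mock level at 1.5 h (31.2%), beside 13.4% of the 14768 genes, 182 were within 2-fold of it, and 5 were at least double it (1.84%), beside 7.35%. Those 5, named after their values were seen, were GDU6, ARD3, AT5G09570, AT1G26380 and AT1G26420. The last 2 met the rule only with replicate 2 of mock at 24 h. AT1G26380 had 13.997 and 12.7 FPKM at 24 h of As(V), against 9.80 and 73.1 FPKM in mock, so As(V) lay above replicate 1 of mock. AT1G26420 had 2.95 and 3.60 FPKM at 24 h of As(V), against 3.49 and 12.6 FPKM in mock. These values share the mock libraries at 1.5 h or the As(V) libraries at 24 h with the rule and are given without a test.

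**Figure D3:**
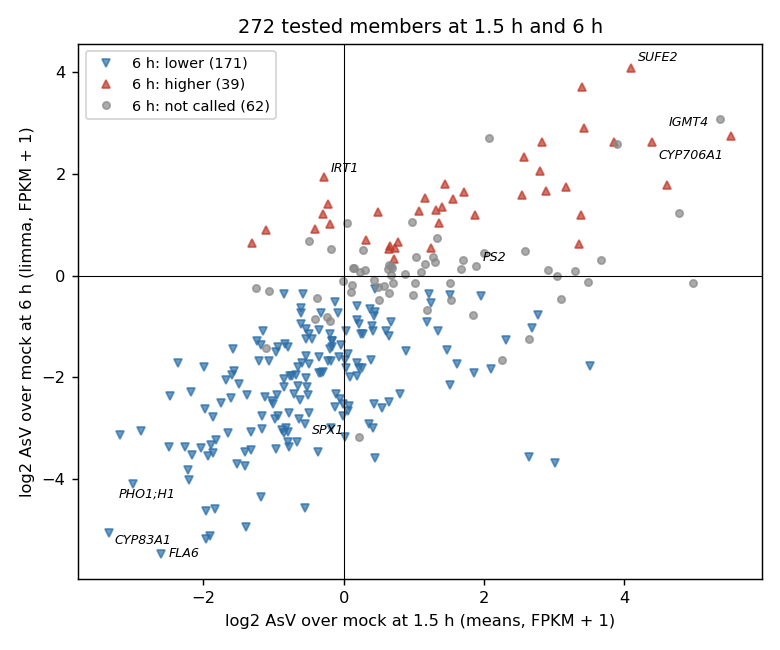
Each point is 1 of the 272 tested members, by log2 of As(V) over mock at 1.5 h from group means (x axis) and by the fitted log2 change at 6 h (y axis). Downward triangles are the 171 called lower at 6 h, upward triangles the 39 called higher and circles the 62 not called. SUFE2, IGMT4 and CYP706A1 were higher with As(V) at both times.

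The mock rise itself came mostly after 6 h. The median member had covered 25.7% of its log2 rise by 6 h, and 206 of the 272 tested members had covered less than 50% of it. Among the 202 tested members that met the rule without each of its 6 libraries the median was 25.5%. The rise itself was a condition of the rule, so these shares describe the members and carry no test. By 6 h, 57 were below their level at 1.5 h and 12 were already above their level at 24 h. The latest risers were AT5G66564, AT1G36640, IRT1 and AT5G19890, and the earliest AT4G32480, AT3G23170, ERF13 and AT2G25735. AT1G36640, AT4G32480, AT3G23170 and AT2G25735 met the rule only with replicate 2 of mock at 24 h. AT1G36640 had 9.39 FPKM in replicate 1 there and 54.6 FPKM in replicate 2, beside 15.8 and 12.9 FPKM in mock at 1.5 h, so replicate 1 showed no rise. ERF13, an ethylene response factor, had 11.3 and 11.1 FPKM at 1.5 h, 3.52 and 6.90 at 6 h, and 2.26 and 0.999 at 24 h in As(V) roots. ERF13 in mock roots had 1.87 and 1.03 FPKM at 1.5 h, 13.2 and 13.6 at 6 h, and 5.45 and 6.80 at 24 h, so both mock libraries at 6 h lay above both at 24 h. At 6 h the change, as for each gene below the log2 of As(V) over mock, was -1.26 ± 0.24 (SE; adjusted p = 0.00067). AT4G32480, a gene of the DUF506 family, had 132 and 120.1 FPKM at 1.5 h, 112 and 116 at 6 h, and 24.997 and 28.0 at 24 h with As(V). AT4G32480 in mock roots had 51.7 and 46.8 FPKM at 1.5 h, 237 and 251 at 6 h, and 92.9 and 154 at 24 h, likewise with the 2 libraries at 6 h above the 2 at 24 h. The snoRNA gene AT5G66564 had at most 3 estimated reads in a library, too few for its place among the latest risers to carry weight.

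Phosphate starvation genes were the largest listed group, with 18 members among 46 genes in the list. At 6 h 14 of the 18 fell, 0 rose and 4 did not pass, PHT1;3, PS2, MGDC and PLDP2. Of the 43 tested genes in the whole list 27 fell, 9 rose and 7 did not pass, with a median log2 change of -0.74. Over all genes tested 37.5% fell and 35.8% rose, with a median of -0.12. The list was written with results of these data known, and 18 of its genes are members by their values at 24 h.

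The sensors SPX1 and SPX3 were lowest at 6 h of As(V) and higher again at 24 h. SPX1, a nuclear sensor that restrains PHR1, had 256 and 226 FPKM at 1.5 h, 60.9 and 67.3 at 6 h, and 271 and 229.8 at 24 h in As(V) roots. It had 377 and 331 FPKM at 1.5 h, 468 and 507 at 6 h, and 939 and 943 at 24 h in mock roots. The As(V) libraries lay below the mock libraries at each of the 3 times, and at 6 h the change was -2.91 ± 0.11 (SE; adjusted p = 5.7e-10). SPX3, of the same family, had 16.7 and 15.8 FPKM at 1.5 h, 3.60 and 2.78 at 6 h, and 14.6 and 10.7 at 24 h with As(V), against 9.24 and 8.57 FPKM at 1.5 h, 18.5 and 21.3 at 6 h, and 211 and 197 at 24 h in mock. Its As(V) libraries were above mock at 1.5 h and below it at 6 and 24 h, with a change of -2.33 ± 0.29 (SE; adjusted p = 1.9e-05) at 6 h. Not all SPX genes of the list went this way. SPX2, not a member, averaged 235 FPKM with As(V) and 69.0 FPKM in mock at 6 h, a change of 1.75 ± 0.06 (SE; adjusted p = 1.8e-10). SPX4, also not a member, changed by -0.35 ± 0.13 (SE; adjusted p = 0.033). IPS1, the noncoding RNA that mimics the target of miR399, had 372 and 313 FPKM at 1.5 h, 157 and 193 at 6 h, and 106 and 94.0 at 24 h in As(V) roots. IPS1 in mock roots had 469 and 391 FPKM at 1.5 h, 293 and 290.3 at 6 h, and 1510.2 and 1608 at 24 h. Unlike SPX1 it did not regain level between 6 and 24 h of As(V), where both libraries at 24 h were the lowest of the 12. The change at 6 h was -0.74 ± 0.12 (SE; adjusted p = 0.00025).

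Among transport proteins, PHT1;2, a high-affinity phosphate carrier, had 28.8 and 22.3 FPKM at 1.5 h, 5.42 and 6.22 at 6 h, and 60.6 and 42.2 at 24 h with As(V). PHT1;2 in mock roots had 52.8 and 64.2 FPKM at 1.5 h, 42.9 and 47.0 at 6 h, and 216 and 178 at 24 h. The change at 6 h was -2.75 ± 0.34 (SE; adjusted p = 3.1e-05), and 45.6% of its exon windows of 50 bases occur elsewhere in the genome, so its reads may be shared with a near copy. PHT1;3 had 5.22 and 3.02 FPKM at 1.5 h, 1.65 and 2.57 at 6 h, and 9.89 and 4.96 at 24 h with As(V). PHT1;3 in mock roots had 4.44 and 2.93 FPKM at 1.5 h, 1.27 and 2.32 at 6 h, and 39.7 and 64.8 at 24 h, with libraries that overlapped at 6 h and a change of 0.15 ± 0.85 (SE; adjusted p = 0.88). PHT1;9, which acts in root-to-shoot transport, had 4.70 and 4.14 FPKM at 1.5 h, 0.756 and 0.807 at 6 h, and 2.67 and 1.93 at 24 h with As(V). PHT1;9 in mock roots had 5.53 and 6.00 FPKM at 1.5 h, 5.46 and 5.91 at 6 h, and 20.8 and 20.03 at 24 h, a change of -1.91 ± 0.26 (SE; adjusted p = 4.6e-05) at 6 h. PHO1;H1, a phosphate exporter of the PHO1 family, had 1.801 and 3.17 FPKM at 1.5 h, 0.382 and 0.181 at 6 h, and 11.6 and 10.2 at 24 h with As(V). In mock it had 16.3 and 13.9 FPKM at 1.5 h, 20.6 and 18.9 at 6 h, and 44.3 and 42.3 at 24 h. It was the lowest of the 18 at 6 h relative to mock, at -4.02 ± 0.46 (SE; adjusted p = 1.1e-05).

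Phosphate-scavenging enzymes differed at 1.5 h and were all below mock at 24 h. PEPC1, a phosphatase of phosphocholine and phosphoethanolamine (AT1G17710), had 21.2 and 29.8 FPKM at 1.5 h, 3.60 and 5.46 at 6 h, and 30.6 and 20.9 at 24 h in As(V) roots. In mock it had 25.5 and 22.8 FPKM at 1.5 h, 28.3 and 34.7 at 6 h, and 421 and 392.3 at 24 h. At 1.5 h its libraries overlapped between conditions, and at 6 h As(V) was lower, with a change of -2.57 ± 0.38 (SE; adjusted p = 0.0001). PS2, a pyrophosphatase induced by phosphate starvation, had 274 and 261 FPKM at 1.5 h, 134 and 176 at 6 h, and 88.0 and 74.7 at 24 h with As(V). It had 72.7 and 71.1 FPKM at 1.5 h, 129 and 142 at 6 h, and 709 and 647 at 24 h in mock. Its As(V) libraries thus lay above mock at 1.5 h, overlapped with it at 6 h and lay below it at 24 h, and the change at 6 h was 0.18 ± 0.11 (SE; adjusted p = 0.17). With library totals that change was -1.01. SRG3, a glycerophosphodiester phosphodiesterase, had 424 and 399 FPKM at 1.5 h, 167 and 193 at 6 h, and 144 and 119 at 24 h with As(V). SRG3 in mock roots had 170.1 and 183 FPKM at 1.5 h, 219 and 241 at 6 h, and 491 and 484 at 24 h. It too was above mock in both libraries at 1.5 h and below it at 6 h, with a change of -0.35 ± 0.10 (SE; adjusted p = 0.006). Without replicate 2 of mock or replicate 1 of As(V) at 6 h the adjusted p was 0.0533 or 0.0682. The purple acid phosphatase PAP12 had a change of -1.07 ± 0.07 (SE; adjusted p = 1.1e-07) at 6 h, and PPCK1, a kinase of phosphoenolpyruvate carboxylase, of -0.35 ± 0.08 (SE; adjusted p = 0.002).

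The lipid remodelling members were above mock or overlapped with it at 1.5 h of As(V), and below it at 24 h as the rule requires. Other lipid genes of the list went another way. The galactolipid synthases DGD1 and DGD2, which are not members, changed by 4.62 ± 0.09 (SE; adjusted p = 8.5e-12) and 4.22 ± 0.09 (SE; adjusted p = 1.1e-11) at 6 h. At 24 h DGD1 averaged 25.4 FPKM with As(V) and 13.9 FPKM in mock, and DGD2 41.5 FPKM with As(V) and 45.1 FPKM in mock. SQD2, which makes sulfolipid, had 80.5 and 83.6 FPKM at 1.5 h, 36.0 and 49.8 at 6 h, and 26.6 and 29.6 at 24 h with As(V). SQD2 in mock roots had 69.6 and 73.8 FPKM at 1.5 h, 133 and 149 at 6 h, and 419 and 398 at 24 h. As(V) libraries at 6 and 24 h lay below every mock library, and the change at 6 h was -1.71 ± 0.12 (SE; adjusted p = 1.2e-07). SQD1, which provides the sulfoquinovose precursor, had a change of -1.82 ± 0.14 (SE; adjusted p = 2.8e-07) at 6 h. The galactolipid synthase MGDC had 39.8 and 46.7 FPKM at 1.5 h, 14.6 and 25.9 at 6 h, and 19.9 and 14.5 at 24 h in As(V) roots. MGDC in mock roots had 13.6 and 14.99 FPKM at 1.5 h, 23.9 and 32.0 at 6 h, and 170.0 and 163 at 24 h. Its As(V) libraries were above mock at 1.5 h and overlapped with mock at 6 h, where the change was -0.49 ± 0.24 (SE; adjusted p = 0.089). MGD2, of the same enzyme family, had 14.1 and 17.6 FPKM at 1.5 h, 6.94 and 9.07 at 6 h, and 2.43 and 2.19 at 24 h with As(V). MGD2 in mock roots had 5.22 and 4.54 FPKM at 1.5 h, 10.15 and 11.1 at 6 h, and 31.5 and 29.7 at 24 h, with a change of -0.38 ± 0.15 (SE; adjusted p = 0.036) at 6 h. The call was lost with median-of-ratios scaling (adjusted p = 0.0936), without replicate 2 of mock at 6 h (0.127) and without replicate 1 of As(V) at 6 h (0.299). The phospholipase NPC4 had 43.3 and 39.8 FPKM at 1.5 h, 37.6 and 37.9 at 6 h, and 14.8 and 15.4 at 24 h with As(V), against 28.2 and 32.4 FPKM at 1.5 h, 42.2 and 49.0 at 6 h, and 145 and 134 at 24 h in mock. It fell by 0.26 on the log2 scale at 6 h, with an SE of 0.09 (adjusted p = 0.025), and leaving out replicate 2 of mock or either replicate of As(V) at 6 h lost the call, at adjusted p of 0.187, 0.0896 and 0.0804. With median-of-ratios scaling it was -0.17 with an adjusted p of 0.141, while at 24 h both As(V) libraries were lower than every other library. For PLDP2, a phospholipase D, the change at 6 h was -0.18 ± 0.13 (SE; adjusted p = 0.23).

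**Figure D4:**
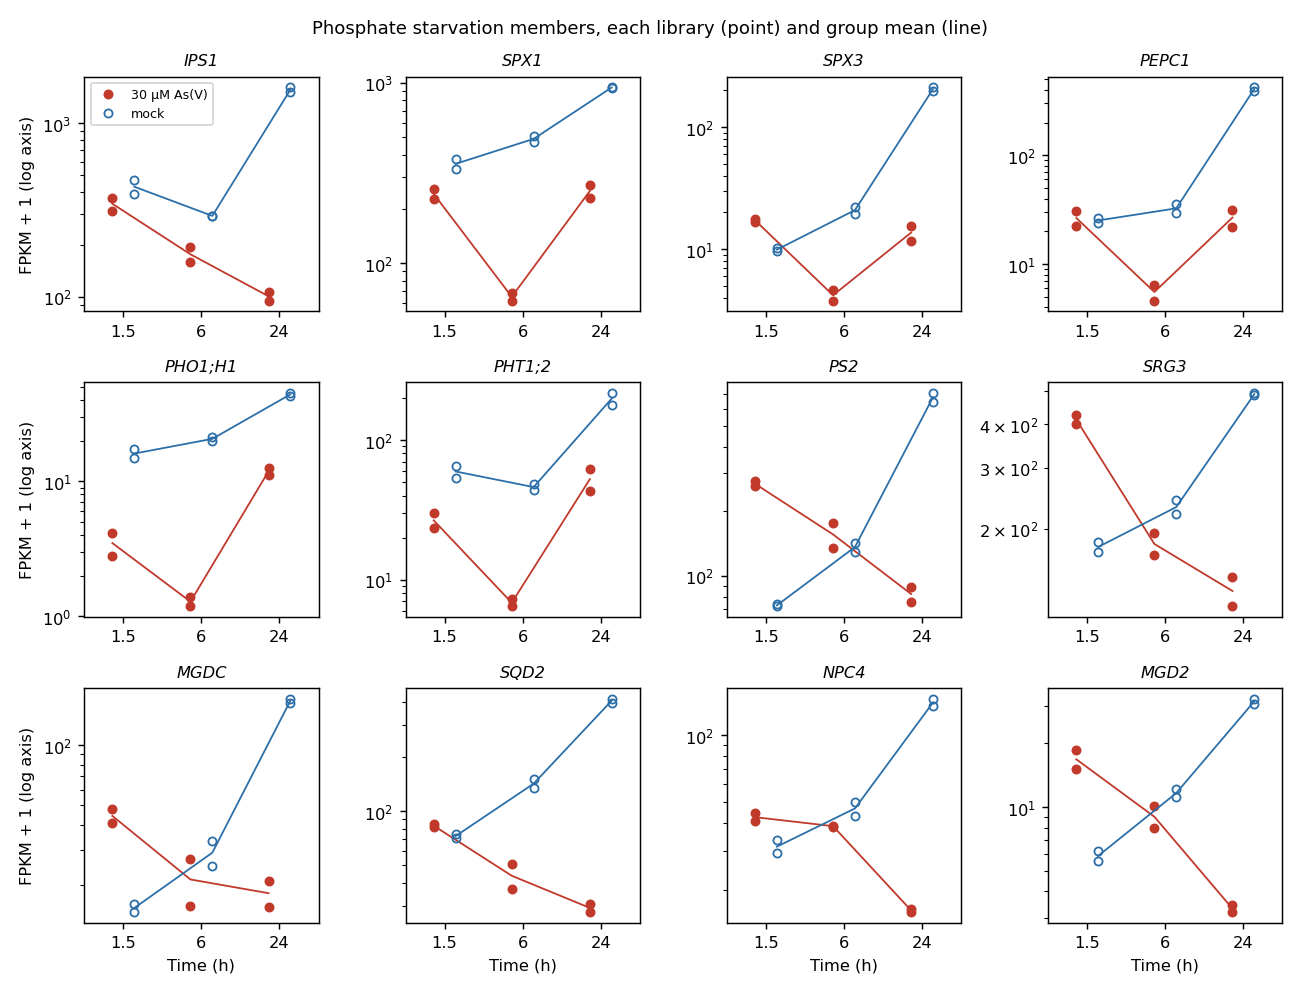
FPKM + 1 on a log axis at 1.5, 6 and 24 h for 12 phosphate starvation members, with As(V) libraries as filled points left of the mock libraries as open points, and lines through group means. SPX1, SPX3, PEPC1, PHO1;H1 and PHT1;2 were lowest at 6 h of As(V) and higher again at 24 h, whereas IPS1, SQD2, NPC4 and MGD2 were lowest at 24 h.

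A pair of phosphate-regulated miRNA genes also met the rule on very few reads. MIR827 had 0 and 0 FPKM at 6 h of As(V), against 219 and 114 FPKM in mock at 6 h, on at most 13 estimated reads in a library. MIR399d was listed at 0 in all libraries other than mock at 24 h, where it had 70.8 and 185 FPKM from at most 5 estimated reads. Neither passed the filter, and messenger RNA libraries are not a measure of mature miRNA. The 22 untested members, 16 of them not annotated as protein-coding, had at most 13 estimated reads in a library.

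Genes that make methionine-derived glucosinolates, sulfur-rich defence compounds, were at low levels with As(V) at 6 h, when their members had covered more than 50% of the mock rise. This list was added after the values were seen. Of its 20 genes 6 are members, and at 6 h all 6 fell. Of the 18 genes tested in the list 16 fell, 0 rose and 2, BCAT3 and IIL1, did not pass, and the median log2 change was -2.99. The shares over all genes tested were 37.5% lower and 35.8% higher. BCAT4, which transaminates methionine in the first step of chain elongation, had 109 and 115 FPKM at 1.5 h, 39.5 and 64.3 at 6 h, and 29.2 and 27.1 at 24 h with As(V). In mock it had 121 and 121 FPKM at 1.5 h, 256 and 256 at 6 h, and 282 and 267 at 24 h, so most of the rise was complete at 6 h. The change at 6 h was -2.32 ± 0.14 (SE; adjusted p = 6.7e-08). IPMI1, an isopropylmalate isomerase subunit, had 12.8 and 14.4 FPKM at 1.5 h, 1.54 and 3.36 at 6 h, and 14.3 and 12.6 at 24 h with As(V). IPMI1 in mock roots had 48.7 and 58.8 FPKM at 1.5 h, 120.2 and 110.2 at 6 h, and 124 and 124 at 24 h, a change of -5.12 ± 0.31 (SE; adjusted p = 4.2e-08). IMD1, the dehydrogenase of the same cycle, had a change of -3.005 ± 0.18 (SE; adjusted p = 1.1e-07) at 6 h. CYP83A1, which oxidises methionine-derived aldoximes, had 20.04 and 21.5 FPKM at 1.5 h, 1.88 and 3.88 at 6 h, and 11.8 and 11.2 at 24 h in As(V) roots. It had 84.0 and 83.7 FPKM at 1.5 h, 137 and 133 at 6 h, and 180.0 and 174 at 24 h in mock roots. As(V) libraries lay below mock at each time, and at 6 h the change was -5.18 ± 0.18 (SE; adjusted p = 3.8e-10). The glutathione transferases GSTF11 and GSTU20, placed in the same pathway, changed by -4.35 ± 0.37 (SE; adjusted p = 7.7e-07) and -1.67 ± 0.13 (SE; adjusted p = 3.1e-07). AK3, an aspartate kinase at the head of methionine synthesis, had 8.50 and 8.76 FPKM at 1.5 h, 0.725 and 1.38 at 6 h, and 3.22 and 2.52 at 24 h with As(V). AK3 in mock roots had 24.7 and 24.0 FPKM at 1.5 h, 61.3 and 61.9 at 6 h, and 66.8 and 61.8 at 24 h, a change of -4.95 ± 0.23 (SE; adjusted p = 4.4e-09).

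Outside the members, MYB28, the factor that activates this pathway, averaged 2.19, 0.673 and 8.25 FPKM at 1.5, 6 and 24 h of As(V), and 19.2, 32.8 and 35.4 FPKM in mock. Its change at 6 h was -4.37 ± 0.38 (SE; adjusted p = 1.1e-06). It missed the rule since its mock rise was under 2-fold.

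Of the iron acquisition genes, IRT1 and FRO2 dipped at 6 h in mock before their rise, and NAS1 did not. IRT1, the root iron transporter, had 7.40 and 19.4 FPKM at 1.5 h, 5.42 and 8.58 at 6 h, and 5.22 and 5.64 at 24 h with As(V). In mock it had 14.3 and 18.7 FPKM at 1.5 h, 1.37 and 0.777 at 6 h, and 84.4 and 90.5 at 24 h. As(V) libraries were above mock at 6 h and far below it at 24 h, and the change at 6 h was 1.94 ± 0.64 (SE; adjusted p = 0.019). With library totals it was 1.04 with an adjusted p of 0.143, and without either mock library or replicate 2 of As(V) at 6 h the adjusted p was 0.0728 to 0.0979. FRO2, the ferric chelate reductase that acts before IRT1, had 3.34 and 9.83 FPKM at 1.5 h, 2.25 and 4.90 at 6 h, and 1.25 and 1.19 at 24 h with As(V). FRO2 in mock roots had 5.42 and 7.24 FPKM at 1.5 h, 1.24 and 1.05 at 6 h, and 40.2 and 45.3 at 24 h. It followed the same course, with a change of 1.04 ± 0.54 (SE; adjusted p = 0.11) at 6 h. NAS1, which makes the metal chelator nicotianamine, had 3.06 and 4.53 FPKM at 1.5 h, 0.615 and 1.31 at 6 h, and 1.98 and 2.02 at 24 h with As(V). NAS1 in mock roots had 7.11 and 7.88 FPKM at 1.5 h, 13.9 and 14.8 at 6 h, and 16.4 and 17.7 at 24 h, with a change at 6 h of -2.99 ± 0.30 (SE; adjusted p = 3.7e-06). AT1G47395 and AT1G47400, genes of the iron list given by identifier that lie close together on chromosome 1, changed by -2.35 ± 0.78 (SE; adjusted p = 0.018) and -1.95 ± 0.49 (SE; adjusted p = 0.0039) at 6 h. The call of AT1G47395 was lost without replicate 2 of mock or either replicate of As(V) at 6 h, at an adjusted p of 0.0548 to 0.108. In the list of 23 iron genes 5 are members, of which 3 fell, 1 rose and 1 did not pass. Of the 20 tested, 5 fell, 5 rose and 10 did not pass. Both shares are smaller than over all genes tested, of which 37.5% fell and 35.8% rose.

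Regulators linked to salicylic acid, a defence hormone, went different ways. This list was also added after the values were seen, and 8 of its 23 genes are members, of which 3 fell, 3 rose and 2 did not pass. Over the 19 tested genes 6 fell, 5 rose and 8 did not pass. Among all genes tested 37.5% fell and 35.8% rose, so a split of this kind is not particular to the list. WRKY38, a negative regulator of basal defence, had 1.51 and 0.746 FPKM at 1.5 h, 1.38 and 0.187 at 6 h, and 0.362 and 0.269 at 24 h with As(V). WRKY38 in mock roots had 2.33 and 3.06 FPKM at 1.5 h, 12.7 and 13.6 at 6 h, and 24.5 and 24.8 at 24 h, a change of -3.08 ± 0.37 (SE; adjusted p = 1.5e-05) at 6 h. WRKY70, which links salicylate and jasmonate signalling, changed by -1.69 ± 0.40 (SE; adjusted p = 0.0028), and its relative WRKY54 by -0.71 ± 0.23 (SE; adjusted p = 0.015). NIMIN-2, a protein that interacts with the salicylate co-regulator NPR1, had 6.32 and 7.34 FPKM at 1.5 h, 7.78 and 4.61 at 6 h, and 8.73 and 4.85 at 24 h with As(V). It had 4.81 and 7.76 FPKM at 1.5 h, 8.48 and 7.18 at 6 h, and 72.2 and 72.0 at 24 h in mock, so its libraries overlapped at 6 h and were apart at 24 h. WRKY51 had 59.0 and 55.6 FPKM at 1.5 h, 83.9 and 45.7 at 6 h, and 7.90 and 6.56 at 24 h with As(V). WRKY51 in mock roots had 8.64 and 5.74 FPKM at 1.5 h, 9.74 and 8.65 at 6 h, and 54.3 and 55.0 at 24 h. It was far above mock at 1.5 and 6 h, by 2.63 ± 0.28 (SE; adjusted p = 6.5e-06) at 6 h, and below mock at 24 h. DMR6, an oxygenase that hydroxylates salicylate, had 40.2 and 34.5 FPKM at 1.5 h, 116 and 80.1 at 6 h, and 20.3 and 22.5 at 24 h with As(V). DMR6 in mock roots had 43.9 and 43.3 FPKM at 1.5 h, 37.1 and 34.6 at 6 h, and 137 and 116 at 24 h, with a change of 1.40 ± 0.15 (SE; adjusted p = 6.9e-06) at 6 h. HWI1, annotated in a receptor-like kinase-related family, rose at 6 h by 1.20 ± 0.13 (SE; adjusted p = 8e-06). With library totals neither DMR6 (0.22, adjusted p = 0.15) nor HWI1 (0.07, adjusted p = 0.61) was called. WRKY53 had 13.8 and 8.22 FPKM at 1.5 h, 1.29 and 0.510 at 6 h, and 6.62 and 6.06 at 24 h with As(V). WRKY53 in mock roots had 7.64 and 10.9 FPKM at 1.5 h, 12.3 and 19.7 at 6 h, and 19.2 and 64.2 at 24 h, and it met the rule only with replicate 2 at 24 h. Its change at 6 h was -3.17 ± 2.07 (SE; adjusted p = 0.2). Without replicate 2 of As(V) at 6 h WRKY54 was at -0.28 with an adjusted p of 0.269. In the WRKY family as a whole, 6 of 71 genes are members. Of the 58 tested 10 fell and 31 rose at 6 h, beside 37.5% and 35.8% of all genes tested.

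**Figure D5:**
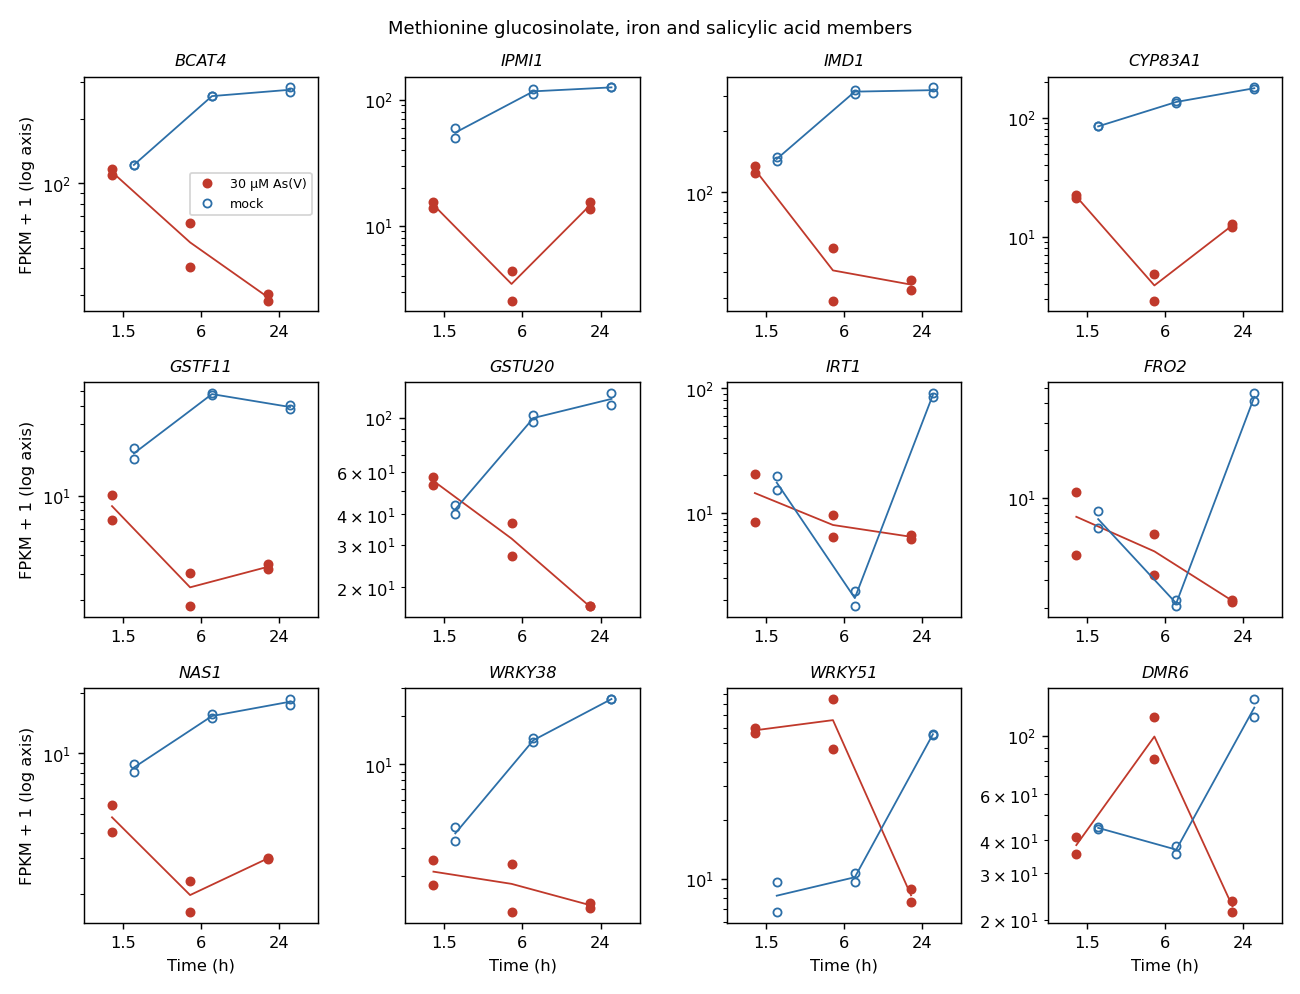
FPKM + 1 on a log axis at 1.5, 6 and 24 h for 6 methionine glucosinolate members, 3 iron members and 3 members linked to salicylic acid, with As(V) libraries as filled points left of the mock libraries as open points, and lines through group means. The glucosinolate genes were already high at 6 h in mock, IRT1 and FRO2 were lowest there, and WRKY51 was above mock at 1.5 and 6 h of As(V).

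All 3 expansin members were called lower than mock at 6 h of As(V). Expansins loosen walls during growth, and the 3 were lower than mock in both As(V) libraries at each time. EXPA4 had 22.7 and 18.5 FPKM at 1.5 h, 5.66 and 6.30 at 6 h, and 45.1 and 45.7 at 24 h with As(V). EXPA4 in mock roots had 54.5 and 67.1 FPKM at 1.5 h, 88.0 and 91.2 at 6 h, and 188 and 175 at 24 h, a change of -3.70 ± 0.20 (SE; adjusted p = 1.4e-08) at 6 h. EXPB3 had 11.5 and 9.49 FPKM at 1.5 h, 2.03 and 4.199 at 6 h, and 12.2 and 16.7 at 24 h with As(V). EXPB3 in mock roots had 43.4 and 36.6 FPKM at 1.5 h, 91.5 and 97.0 at 6 h, and 121 and 105 at 24 h, a change of -4.58 ± 0.32 (SE; adjusted p = 1.6e-07). For EXPA15 the change was -3.24 ± 0.38 (SE; adjusted p = 1.5e-05). Of the 22 tested genes of the expansin family 11 fell, 4 rose and 7 did not pass, beside 37.5% lower and 35.8% higher over all genes. FLA6, a fasciclin-like arabinogalactan protein, had the lowest change of all tested members at 6 h. It had 2.47 and 3.05 FPKM at 1.5 h, 0.270 and 0.511 at 6 h, and 3.76 and 3.67 at 24 h with As(V). FLA6 in mock roots had 20.5 and 23.0 FPKM at 1.5 h, 61.0 and 61.0 at 6 h, and 55.4 and 53.7 at 24 h, a change of -5.48 ± 0.38 (SE; adjusted p = 1.3e-07). XTH19, an enzyme that cuts and joins xyloglucan, changed by -1.19 ± 0.17 (SE; adjusted p = 6.6e-05). CASP5, a protein of the Casparian strip in the endodermis that met the rule only with replicate 2 of mock at 24 h, changed by -1.41 ± 0.37 (SE; adjusted p = 0.0048), and FAR5, a fatty acyl reductase of suberin synthesis, by -1.15 ± 0.22 (SE; adjusted p = 0.0007). CPL3, a small MYB factor of epidermal patterning, changed by -2.43 ± 0.51 (SE; adjusted p = 0.0013). The invertase and pectin methylesterase inhibitor-like genes AT4G25250 and AT5G51520 changed by -1.67 ± 0.28 (SE; adjusted p = 0.00022) and -1.80 ± 0.22 (SE; adjusted p = 1.8e-05). The glycosyltransferase UGT72E3 changed by -3.40 ± 0.33 (SE; adjusted p = 2.5e-06), and AT5G05900 of the same family by -1.36 ± 0.31 (SE; adjusted p = 0.0023). The receptor kinase family gene AT2G36570 changed by -1.50 ± 0.18 (SE; adjusted p = 1.4e-05). The receptor kinase family gene AT5G59680 stood at -0.89 ± 0.38 (SE; adjusted p = 0.053), and of the 3 members from the extensin and proline-rich family AT2G22510 stood at -0.60 ± 0.18 (SE; adjusted p = 0.013), or -0.16 with an adjusted p of 0.184 without replicate 1 of As(V) at 6 h, AT5G06330 at -2.76 ± 0.31 (SE; adjusted p = 9.7e-06) and AT3G20590 at -0.44 ± 0.25 (SE; adjusted p = 0.13). The lipid-transfer family gene AT5G46890 changed by -2.60 ± 0.36 (SE; adjusted p = 4.9e-05) with 26.8% of its exon windows found elsewhere in the genome, and AT4G22640 of the same family by -0.21 ± 0.23 (SE; adjusted p = 0.42).

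The 8 most abundant members in mock at 24 h were AT4G16260, IPS1, OSM34, SPX1, AT5G20790, AT4G15390, Prx37 and PS2. AT4G16260, a glycosyl hydrolase, had 331 and 333 FPKM at 1.5 h, 135 and 88.5 at 6 h, and 428 and 414 at 24 h with As(V). AT4G16260 in mock roots had 649 and 798 FPKM at 1.5 h, 572 and 579 at 6 h, and 2104 and 1894 at 24 h. Its As(V) libraries were below mock at each time, with a change of -2.38 ± 0.16 (SE; adjusted p = 1.6e-07) at 6 h. OSM34, an osmotin, had 528 and 545 FPKM at 1.5 h, 236 and 275 at 6 h, and 172 and 177 at 24 h with As(V). OSM34 in mock roots had 375 and 542 FPKM at 1.5 h, 223 and 264 at 6 h, and 1197 and 1098 at 24 h. It overlapped with mock at 1.5 and 6 h, and the change at 6 h was 0.07 ± 0.15 (SE; adjusted p = 0.69), or -1.13 with library totals. AT5G20790, annotated as an uncharacterized protein, had 46.5 and 46.8 FPKM at 1.5 h, 17.2 and 18.7 at 6 h, and 135 and 109.6 at 24 h with As(V). AT5G20790 in mock roots had 371 and 393 FPKM at 1.5 h, 317 and 329 at 6 h, and 936 and 907 at 24 h, a change of -4.10 ± 0.13 (SE; adjusted p = 1.8e-10). Prx37, a class III peroxidase, changed by -1.29 ± 0.17 (SE; adjusted p = 5e-05), and the peroxidase AT5G19890 by -5.07 ± 0.46 (SE; adjusted p = 1.7e-06). AT5G19890 had 21.5 and 25.4 FPKM at 1.5 h, 1.62 and 2.80 at 6 h, and 107 and 82.0 at 24 h with As(V), against 231 and 262 FPKM at 1.5 h, 106 and 104 at 6 h, and 533 and 641 at 24 h in mock, where it dipped at 6 h. AT4G15390, an acyltransferase, and the P450 gene CYP702A5 lie close together on chromosome 4. AT4G15390 had 109 and 125 FPKM at 1.5 h, 24.6 and 47.3 at 6 h, and 43.1 and 32.3 at 24 h with As(V). AT4G15390 in mock roots had 197 and 211 FPKM at 1.5 h, 336 and 339 at 6 h, and 761 and 739 at 24 h, a change of -3.27 ± 0.22 (SE; adjusted p = 3.3e-07). CYP702A5 had 11.9 and 13.7 FPKM at 1.5 h, 0.565 and 0.461 at 6 h, and 11.8 and 9.75 at 24 h with As(V). CYP702A5 in mock roots had 18.7 and 19.7 FPKM at 1.5 h, 30.3 and 40.0 at 6 h, and 193 and 157 at 24 h, a change of -4.57 ± 0.65 (SE; adjusted p = 6.4e-05). Of 290 members placed in the genome 22 were next to another member (7.59%). The share was 3.15% of the 127 placed mock risers that stayed above 0.5 of mock. Such a share grows with the size of the set, so these shares cannot be compared and do not show clustering. AT1G34040, a pyridoxal phosphate-dependent transferase, changed by -4.63 ± 0.36 (SE; adjusted p = 4.1e-07) at 6 h, the P450 gene CYP71B23 by -1.35 ± 0.31 (SE; adjusted p = 0.0021) and the glutathione transferase GSTF14 by -1.68 ± 0.24 (SE; adjusted p = 6.8e-05).

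A smaller set was far above mock at 1.5 and 6 h of As(V) and below it at 24 h, of which CYP706A1 and AT1G53980 met the rule only with replicate 2 of mock at 24 h. AT5G65609 did not meet the rule when at least 1 of the 6 libraries behind it was left out. SUFE2, which activates cysteine desulfuration for iron-sulfur clusters, had 333 and 309.6 FPKM at 1.5 h, 400.3 and 341 at 6 h, and 27.3 and 29.4 at 24 h with As(V). SUFE2 in mock roots had 19.1 and 16.7 FPKM at 1.5 h, 18.1 and 24.0 at 6 h, and 79.0 and 83.9 at 24 h. Both As(V) libraries were above every mock library at 1.5 and 6 h and below mock at 24 h, and the change at 6 h was 4.08 ± 0.12 (SE; adjusted p = 1.1e-10). CYP706A1, a P450 gene, had 144 and 119 FPKM at 1.5 h, 41.5 and 33.5 at 6 h, and 4.498 and 4.78 at 24 h with As(V). CYP706A1 in mock roots had 5.85 and 4.77 FPKM at 1.5 h, 5.25 and 5.08 at 6 h, and 10.2 and 13.9 at 24 h, a change of 2.63 ± 0.18 (SE; adjusted p = 9.9e-08), with 46.6% of its exon windows found elsewhere in the genome. AT5G65609, annotated as an uncharacterized protein, had 139.9 and 83.3 FPKM at 1.5 h, 201 and 149 at 6 h, and 5.79 and 0 at 24 h with As(V). AT5G65609 in mock roots had 4.51 and 14.8 FPKM at 1.5 h, 11.9 and 12.8 at 6 h, and 28.2 and 24.6 at 24 h, a change of 3.70 ± 0.41 (SE; adjusted p = 2.1e-05). AT1G53980, annotated in the ubiquitin-like superfamily, changed by 2.90 ± 0.77 (SE; adjusted p = 0.0053) on at most 29 estimated reads in a library.

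The indole glucosinolate methyltransferases IGMT2, IGMT3 and IGMT4, a cluster on chromosome 1, were all above mock at 1.5 h of As(V), and IGMT2 and IGMT3 met the rule only with replicate 2 of mock at 24 h. IGMT4 had 167 and 151 FPKM at 1.5 h, 36.0 and 29.6 at 6 h, and 5.17 and 4.89 at 24 h with As(V). IGMT4 in mock roots had 2.54 and 2.401 FPKM at 1.5 h, 2.98 and 5.18 at 6 h, and 11.2 and 54.3 at 24 h, a change of 2.75 ± 0.90 (SE; adjusted p = 0.025) at 6 h. The mock libraries at 24 h stood far apart, and with library totals the change at 6 h was 1.639 with an adjusted p of 0.123. Without any 1 of the 4 libraries at 6 h the call was lost, at an adjusted p of 0.0641 to 0.0904. IGMT2 had 164 and 156 FPKM at 1.5 h, 31.1 and 29.0 at 6 h, and 6.68 and 7.69 at 24 h with As(V). IGMT2 in mock roots had 5.63 and 4.11 FPKM at 1.5 h, 10.5 and 14.2 at 6 h, and 10.6 and 58.8 at 24 h, a change of 1.22 ± 0.78 (SE; adjusted p = 0.19). IGMT3 had 163 and 147 FPKM at 1.5 h, 12.4 and 16.4 at 6 h, and 7.02 and 6.03 at 24 h with As(V). IGMT3 in mock roots had 30.3 and 17.7 FPKM at 1.5 h, 33.0 and 37.7 at 6 h, and 30.5 and 71.4 at 24 h, a change of -1.25 ± 0.54 (SE; adjusted p = 0.064). Between 44.7% (IGMT3) and 9.05% (IGMT4) of their exon windows occur elsewhere in the genome, with 36.7% in IGMT2, so reads may have been split among them. Within As(V), all 3 fell from 1.5 to 6 h, with changes of -2.38 ± 0.65 (SE; adjusted p = 0.017) for IGMT2, -3.36 ± 0.53 (SE; adjusted p = 0.00077) for IGMT3 and -2.25 ± 0.59 (SE; adjusted p = 0.014) for IGMT4. Others above mock at 6 h by smaller steps were the P450 gene CYP91A2 at 0.70 ± 0.16 (SE; adjusted p = 0.0019) and the factor MYB45 at 0.91 ± 0.21 (SE; adjusted p = 0.0019), both of which were below mock with library totals, at -0.43 and -0.17.

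The thresholds divide a continuum. Just inside the mock rise stood AT3G13435 at 1.00, AT2G43670 at 1.00 and UGT72E3 at 1.00 on the log2 scale, and just outside it RGF3, IDL5 and CAMBP25, also at 1.00 when rounded. Just inside the lower level at 24 h stood AT1G73630 at -1.02, AT5G06330 at -1.04 and AT4G17670 at -1.05, and outside it EXPA17 at -0.998, AT3G01175 at -0.99 and AT3G57630 at -0.98. AT3G13435, AT1G73630, AT5G06330 and AT4G17670 met the rule only with replicate 2 of mock at 24 h. Around the level of 5 FPKM, AT1G51920 at 5.01, CHX16 at 5.03 and AT3G48080 at 5.08 were inside, and SIB2 at 4.84, AT2G28780 at 4.79 and AT3G56275 at 4.66 outside.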

How the data were processed

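RNA of 12 root libraries, 2 for each of 6 groups, was sequenced as single reads of 50 bases from stranded messenger RNA libraries, per the labels' protocols. The authors deposited FPKM values for 33557 genes, and the table of the whole series held the same values as the files of single libraries. The submitters' processing notes name Trim Galore, STAR 2.5.4, HTSeq 0.6.0, edgeR and TAIR10, with no roles. Replicate numbers, which the labels do not explain, were not used to pair libraries.

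Depth was estimated from the step of 1 read in the low values, with a tolerance of 0.05 reads, which recovered whole reads in 14640 of 23156 genes (63.2%). Because this was not nearly all genes, no count test was run. Estimated depth within genes ran from 12.85 to 16.04 M reads, at which 1 read in 1500 bases of transcript equals 0.0454 to 0.1237 FPKM. Genes that reached 1 FPKM in 2 libraries or more, and 10 estimated reads in 2 or more, 19837 in all, were fitted as log2(FPKM + 1) with limma 3.58.1 in R 4.3.3, with precision weights from the estimated reads, robust variances shared over all 6 groups and Benjamini-Hochberg adjustment. Every adjusted p in the text is from this fit, and an error beside a log2 change is its SE. Fold changes on this scale understate changes of low genes. The fit was tested on simulated data in which As(V) at 6 h equalled mock in all but a small set of genes. In the real libraries most genes tested were called at 6 h, so that test does not show how the fit performs here.

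The members and lists were chosen with earlier results of these data known, and 2 lists, methionine glucosinolate synthesis and salicylic acid signalling, were added after their values were seen. Named by rule were the 8 members with the lowest and the 6 with the highest change at 6 h, the 8 with the highest level in mock at 24 h, the 4 with the lowest and the 4 with the highest share of the mock rise at 6 h, up to 4 members of each list with at least 2 members, and genes next to each threshold. Other genes named were chosen after their values were seen. Alternatives changed the pseudocount, filter, weights, scaling, replicate block, groups fitted and each library in turn. Promoters were read from the RefSeq genome TAIR10.1, which names 32810 of the genes.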

Additional observations from a re-analysis of the deposited data

Results flagged for a closer look

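All 39 members that rose with As(V) at 6 h, in libraries that did not overlap with mock, lay below mock without overlap at 24 h. The rule already required a much lower As(V) mean at 24 h, which makes a lack of overlap at 24 h likely without fixing it. The share of all genes without overlap there was not counted, so the 39 of 39 adds no evidence beyond the rule. The change of direction between the times was not tested. Among the named members the log2 change at 6 h was 4.08 for SUFE2, 3.70 for AT5G65609, 2.90 for AT1G53980, 2.75 for IGMT4, 2.63 for CYP706A1, 2.63 for WRKY51 and 1.94 for IRT1. It was 1.51 for AT3G13435, 1.40 for DMR6, 1.20 for HWI1, 0.91 for MYB45 and 0.70 for CYP91A2.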

How the results depend on the processing

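With library totals 13 members rose at 6 h and the median change at 6 h was -2.24, beside -1.06 over all genes. From 1.5 to 6 h of As(V) 10 members rose and the median was -1.21. The deposited library size was 0.627 and 0.642 of the reads at 1.5 h of As(V), and 0.436 and 0.451 at 6 h. Library totals thus lower genes in general between these times, and no value over all genes is given beside the -1.21. The median at 6 h was -1.37 with a pseudocount of 0.1, -1.15 without the filter and -1.17 with median-of-ratios scaling, and the median from 1.5 to 6 h of As(V) was -1.02 with a pseudocount of 0.1. Among the members that met the rule without each of its 6 libraries, an alternative chosen after seeing the data, 22 rose at 6 h and the median was -1.42. Leaving out 1 library at a time gave 153 to 175 members lower and 32 to 47 higher at 6 h with a median of -1.29 to -1.23, and 111 to 159 lower and 15 to 18 higher from 1.5 to 6 h of As(V) with a median of -0.97 to -0.81. It gave 282 to 339 members by the rule. The replicate numbers did not pair the libraries, with correlations from -0.053 to 0.093. With the replicate block 174 members fell and 41 rose at 6 h, with a median of -1.26, and 154 fell and 17 rose from 1.5 to 6 h of As(V), with a median of -0.82. The direction turned with library totals for OSM34 (-1.13), PS2 (-1.01), PHT1;3 (-0.59), CYP91A2 (-0.43) and MYB45 (-0.17). Leaving out 1 library at 6 h turned it in 4 genes beside AT4G22640, with a range over the libraries left out of -0.048 to 0.19 for OSM34, -0.0072 to 0.37 for PS2, -0.11 to 0.44 for PHT1;3, -0.39 to 0.023 for PLDP2 and -0.54 to 0.13 for AT4G22640. Apart from the scaling itself, the cause was not tested. Low genes are limited by depth, and 2 libraries a group limit all tests.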
